A study of Homo sapiens with 8 samples.

Results

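The 8 genes described here make, break down or control the cell's polyamines: ODC1, AMD1, SRM, SMS, SAT1, OAZ1, OAZ2 and AZIN1. They were chosen by gene symbol, and all 46 introns that the deposited tables list for them were taken, out of 142206 introns in 15902 genes. SUM159, an established line derived from a human triple-negative breast tumour, received H3B-8800, an inhibitor of splicing that targets SF3b, or the vehicle DMSO for 12 h. Libraries were made from polyadenylated RNA, as input or following pull-down with the antibody J2, which recognises double-stranded RNA. The 4 groups were J2 with drug, J2 with vehicle, input with drug and input with vehicle, with 2 biological replicates each. No group was precipitated with a control antibody, so recovery by J2 means only the level in the J2 libraries over that in the input, and whether the RNA was double-stranded was not tested. The set was proposed with a result of these data in view, the rise of AMD1 in J2 RNA with drug. AMD1 values that use the J2 libraries with drug are therefore given without a test.

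Polyamines are small, positively charged molecules that bind nucleic acids and are needed for growth and translation. Ornithine decarboxylase (ODC1) makes putrescine from ornithine. S-adenosylmethionine decarboxylase (AMD1) makes the aminopropyl donor, which spermidine synthase (SRM) and spermine synthase (SMS) transfer to give spermidine and spermine. The acetyltransferase SAT1 marks both products for export or breakdown. The antizymes OAZ1 and OAZ2, which are translated through a ribosomal frameshift that polyamines favour, bind ornithine decarboxylase and lead it to the proteasome, and the antizyme inhibitor AZIN1 takes the antizymes away from it.

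The tables gave reads inside each intron, called intronic reads, and a second total, and the difference was taken as reads that span the splice junction, called spliced reads. The intronic share is the percentage of intronic reads in that total. Levels are RPM, the read count scaled to the library depth, and depths were 47000000 to 57000000 reads. Fold changes are log2 values ± SE. Spliced reads were summed per gene and tested over 8461 genes, and intronic reads were tested over 8521 introns, with edgeR's quasi-likelihood test and Benjamini-Hochberg adjustment at a threshold of 0.05. The submitters call the replicates biological and say no more of how separate the cultures were, so p-values measure the spread between these libraries. Across all introns the intronic share was 12.96% and 12.5% in J2 with drug and 3.63% and 3.98% in J2 with vehicle, and 13.03% and 10.3% in input with drug and 3.81% and 3.83% in input with vehicle. The J2 replicates with drug differed most (chi-square of 15.6 per gene, against 2.95 to 4.41 in the other groups), and replicate 2 held more reads at junctions of low GC content. Of 8 mesenchymal markers 7 reached 1 RPM (the list summed to 733 to 742, 930 to 970, 798 to 866 and 800 to 815 RPM in the 4 groups in the order above). Of 9 luminal markers ESR1 and PGR had no read, and KRT8, KRT18 and GATA3 reached 1 RPM. The luminal list summed to 167 to 169.8 RPM in J2 with drug and 235 to 265 RPM in J2 with vehicle, and to 174 to 189 RPM in input with drug and 228 to 251 RPM in input with vehicle, and its part in the results was not tested. Immune and endothelial markers summed to at most 0.412 and 0.0943 RPM in any library.

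With drug, introns 1, 5 and 6 of SRM and intron 4 of OAZ1 gained reads while a long intron of SAT1 lost them, both in J2 RNA and in the input. SRM intron 5 reached the 0.5 RPM needed for the test in drug libraries only, and the SAT1 intron in vehicle libraries only. That favours a call of a rise for the first and of a fall for the second. Spliced reads moved in both directions. In these bulk libraries fewer cells with a transcript and less of it per cell cannot be told apart. In J2 RNA, SMS, OAZ2, SAT1 and AZIN1 rose with drug and OAZ1 fell, and ODC1 and SRM did not pass the test. That is 5 of the 7 members tested, against 74.1% of all genes (34.6% higher and 39.5% lower). In the input, OAZ2, SAT1, SMS and ODC1 rose, and AMD1, AZIN1, OAZ1 and SRM fell. That is 8 of 8, against 70.4% of all genes (21.8% higher and 48.7% lower). With the GC trend of each library removed, none of these falls in the input remained called. That removal also takes out each library's overall level, and the median of all junctions in the input went from -0.57 to 0.04. The parts of overall level and GC content in these changes cannot be told apart. The signs of SRM (0.53) and OAZ1 (0.07) turned, and AMD1 (-0.60) and AZIN1 (-0.12) missed the threshold. In J2 RNA the same removal turned the sign of AZIN1 (-0.58), and SRM was called higher (0.45). The median log2 fold change of all genes was -0.38 in the input and -0.03 in J2 RNA, against -0.03 and 0.61 for the 8 members, AMD1 included. With median-of-ratios scaling the input median of all genes was 0.03, so input values are also given relative to the -0.38.

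**Figure D1:**
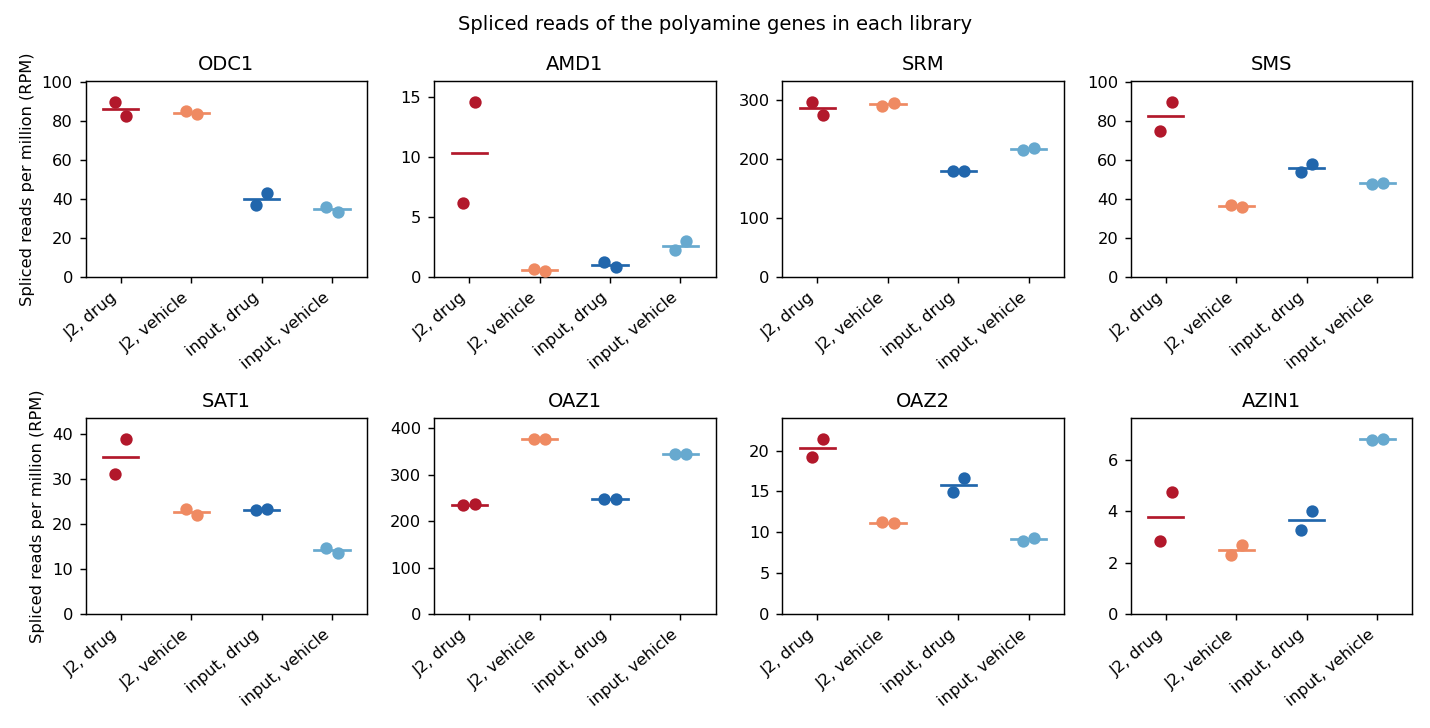
Spliced reads in RPM (vertical axis, linear from 0, one scale per gene) in each library for the 8 polyamine genes, with 1 point per library and a bar at the mean of 2. AMD1 and AZIN1 are the lowest genes and the J2 libraries with drug are the most spread for AMD1 (6.16 and 14.5 RPM).

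ODC1, the entry enzyme of the pathway, was higher in J2 RNA than in the input with drug and with vehicle, and its drug effect was small in both. It had 89.6 and 82.3 RPM of spliced reads in J2 with drug and 84.8 and 83.6 RPM in J2 with vehicle. It had 37.1 and 43.2 RPM in input with drug and 36.1 and 33.6 RPM in input with vehicle. The drug effect was 0.03 ± 0.08 in J2 RNA (edgeR, adjusted p = 0.749). In the input it was 0.20 ± 0.08 (edgeR, adjusted p = 0.0458), or 0.58 above the median of all genes. That call ended without input drug replicate 2 (0.09), input vehicle replicate 1 (0.26) or 2 (0.15), or J2 vehicle replicate 1 or 2 (0.20 each). Of its 9 listed introns 2 held no intronic read, and 6 held 1 to 3 over all 8 libraries. Intron 11 of 11, on chromosome 2, had 5 and 9 intronic reads in J2 with drug and none in J2 with vehicle, where a count of 0 allows a share of up to 0.0428%. It had 2 and 15 in input with drug and none in input with vehicle. Intron 6 had no intronic read among 848 with drug in J2 and input together, which allows up to 0.354%.

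The junctions of ODC1 did not move together. Junction 11 had 2842 and 2052 spliced reads in J2 with drug and 3427 and 3590 in J2 with vehicle, and 1129 and 1334 in input with drug and 870 and 867 in input with vehicle. Its neighbour, junction 10, had 179 and 337 spliced reads in J2 with drug and 58 and 57 in J2 with vehicle, and 21 and 21 in input with drug and 76 and 102 in input with vehicle. Both sets of groups stand apart at each junction, in opposite directions. As a description, the drug effect at junction 11 was -0.42 ± 0.13 in J2 RNA and 0.56 ± 0.14 in the input, and at junction 10 it was 2.25 ± 0.24 and -2.02 ± 0.32. The spliced sequence of the 100 bases on each side had a GC content of 55.5% at junction 11 and 44.5% at junction 10.

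The sequences below show this contrast in base composition, with a further pair from SMS and the junction of AMD1 with most reads. Each gives 40 bases of spliced coding sequence on either side of the junction, from the GENCODE 29 transcripts on GRCh38, with the exon after the junction in capitals. AMD1 junction 8 joins chr6:110893026-110893065 and chr6:110893476-110893515 (plus strand). SMS junction 1 joins chrX:21940834-21940873 and chrX:21967196-21967235, and SMS junction 9 joins chrX:21985184-21985223 and chrX:21992597-21992636 (plus strand). ODC1 junction 10 joins chr2:10441817-10441856 and chr2:10441684-10441723, and ODC1 junction 11 joins chr2:10441509-10441548 and chr2:10440829-10440868 (minus strand).
AMD1 junction 8: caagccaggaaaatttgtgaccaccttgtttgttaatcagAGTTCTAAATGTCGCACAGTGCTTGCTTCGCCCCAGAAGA
SMS junction 1: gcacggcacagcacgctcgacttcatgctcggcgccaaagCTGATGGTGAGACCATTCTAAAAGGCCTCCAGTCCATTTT
SMS junction 9: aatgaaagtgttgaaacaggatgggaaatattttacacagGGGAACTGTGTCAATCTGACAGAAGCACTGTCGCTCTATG
ODC1 junction 10: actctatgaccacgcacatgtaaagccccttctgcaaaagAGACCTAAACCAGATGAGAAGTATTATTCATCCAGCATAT
ODC1 junction 11: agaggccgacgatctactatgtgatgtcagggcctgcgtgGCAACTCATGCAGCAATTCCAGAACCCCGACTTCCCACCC
The GC content of these 80 bases was 45% for AMD1 junction 8, 55% for SMS junction 1, 41.25% for SMS junction 9, 41.25% for ODC1 junction 10 and 57.5% for ODC1 junction 11.

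AMD1 was the member with the largest difference between J2 libraries. It had 6.16 and 14.5 RPM of spliced reads in J2 with drug and 0.660 and 0.526 RPM in J2 with vehicle. It had 1.26 and 0.875 RPM in input with drug and 2.29 and 2.98 RPM in input with vehicle. So it was above its vehicle level in J2 RNA, the rise in view when the set was proposed, and below it in the input. The difference in J2 RNA was 4.12 ± 0.42, and 3.37 without J2 drug replicate 2 or 4.61 without J2 drug replicate 1. In the input AMD1 fell by 1.31 ± 0.41 (-1.31, edgeR, adjusted p = 0.0167), or -0.93 relative to the median of all genes. That call ended without input drug replicate 2 (-1.07, adjusted p = 0.126) or input vehicle replicate 2 (-1.10, adjusted p = 0.0854). The 3 listed introns, 6 to 8 of 8 on chromosome 6, lie in a stretch of low GC content (44.0%, 41.0% and 39.5% around the junctions). All 3 junctions were higher with drug in J2 RNA (3.996, 3.76 and 4.47). After removal of the GC trend, fitted in each library, the AMD1 values were 2.99 in J2 RNA and -0.60 in the input (edgeR, adjusted p = 0.0653). None of the 3 introns held an intronic read in any library. For intron 8 that is 0 of 531 reads with drug, which allows a share of up to 0.565%.

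SRM, spermidine synthase, had more intronic reads with drug, by depth scaling, in the 4 of its 7 introns that could be tested. Over all introns tested, 78.9% were called higher in J2 RNA and 74.2% in the input. SRM had 296 and 274 RPM of spliced reads in J2 with drug and 289 and 295 RPM in J2 with vehicle (-0.03 ± 0.05, edgeR, adjusted p = 0.556). It had 179 and 179.7 RPM in input with drug and 214 and 218 RPM in input with vehicle. This fall of 0.27 (-0.27 ± 0.05, edgeR, adjusted p = 0.000885) was smaller than the median fall of all genes, so SRM lay 0.11 above it. The sign turned under TMM scaling (0.02), median-of-ratios scaling (0.14) and with the GC trend removed (0.53).

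SRM intron 6 held the most intronic reads of the set in the J2 libraries with drug. It is listed from 11055084 to 11055781 on the minus strand of chromosome 1 (GRCh38, where the listed ends are the neighbouring exon bases), within the coding sequence, and holds no annotated exon other than those of retained-intron transcripts. It had 833 and 784 intronic reads in J2 with drug and 87 and 102 in J2 with vehicle, and 535 and 575 in input with drug and 70 and 75 in input with vehicle. Its intronic share was 24.0% and 22.8% in J2 with drug and 3.07% and 3.33% in J2 with vehicle, and 27.7% and 29.4% in input with drug and 3.76% and 3.59% in input with vehicle. The drug libraries lay far above the vehicle libraries in both kinds of RNA. Intronic reads rose by 3.19 ± 0.15 on the log2 scale in J2 RNA (edgeR, adjusted p = 7.46e-21) and 2.99 ± 0.16 in the input (edgeR, adjusted p = 3.45e-19). The medians over all introns tested were 2.87 and 2.29, where the filter also admits introns through the drug libraries alone. With median-of-ratios scaling of intronic reads these medians were 0.76 and 0.65. Intron 1 (11059345 to 11059777) had a share of 21.4% and 26.5% in J2 with drug and 3.26% and 2.39% in J2 with vehicle, and 22.8% and 21.0% in input with drug and 3.41% and 4.38% in input with vehicle. Its intronic reads rose by 3.45 ± 0.21 in J2 RNA and 2.48 ± 0.22 in the input. Unlike intron 6, introns 1 and 3 overlap annotated exons of other SRM transcripts besides retained-intron ones. Reads of such exons cannot be told apart from those of the rest of the intron. Intron 5, of 84 bases, had 86 and 72 intronic reads in J2 with drug and 2 and 2 in J2 with vehicle, and 50 and 71 in input with drug and 1 and 5 in input with vehicle (5.31 ± 0.55 and 4.34 ± 0.53). Intron 3, of 2042 bases, rose by 2.17 ± 0.34 in J2 RNA and 1.56 ± 0.43 in the input, which lies below the medians, and both signs turned under TMM scaling (-0.21 and -0.27). Introns 3 and 5 passed the filter of 0.5 RPM through drug libraries only, which favours a call of a rise.

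Introns 2, 4 and 7 of the same transcript held few reads. SRM intron 2 had a share of 0.121% and 0.367% in J2 with drug and 0.0670% and 0.0661% in J2 with vehicle, and 0.281% and 0.213% in input with drug and 0.0962% and 0.265% in input with vehicle. Intron 4 had 14 and 19 intronic reads in J2 with drug and 2 and 0 in J2 with vehicle, and 2 and 7 in input with drug and 0 and 2 in input with vehicle, too few to enter the test. The last intron, 7, of 76 bases, had a share of at most 0.499% in any library.

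**Figure D2:**
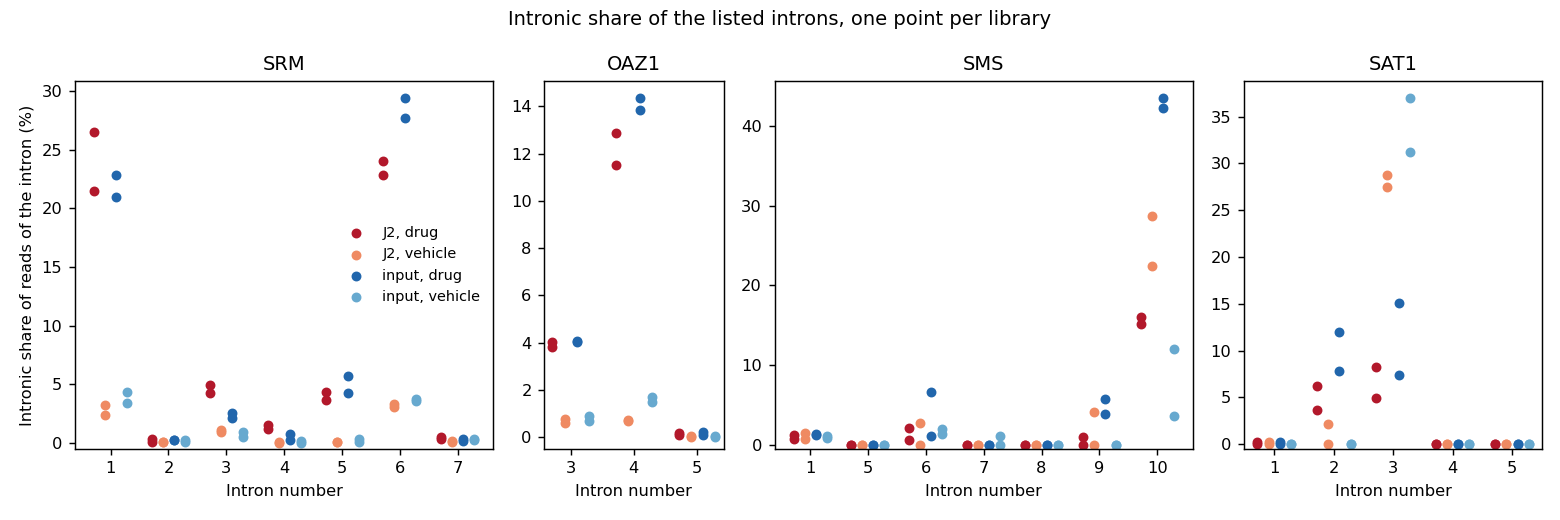
Intronic share (vertical axis, percent of the intron's intronic and spliced reads) of each listed intron of SRM, OAZ1, SMS and SAT1, by intron number, with 1 point per library. SRM introns 1 and 6 and OAZ1 introns 3 and 4 are high with drug in J2 and input libraries, and SAT1 intron 3 is high with vehicle.

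Where an annotated transcript holds the end of an intron as exon, its sequence could be read, and the ends of 3 introns each of SRM and OAZ1 are shown because these introns differed in how far they filled. Each gives the last 50 intron bases in lower case and the first 10 bases of the next exon in capitals, from GENCODE 29. The SRM windows are chr1:11059336-11059395, chr1:11055075-11055134 and chr1:11054876-11054935 (minus strand). The OAZ1 windows are chr19:2271732-2271791, chr19:2272685-2272744 and chr19:2272922-2272981 (plus strand).
SRM intron 1: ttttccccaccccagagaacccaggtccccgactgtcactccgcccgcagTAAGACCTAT
SRM intron 6: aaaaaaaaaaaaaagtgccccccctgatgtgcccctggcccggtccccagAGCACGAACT
SRM intron 7: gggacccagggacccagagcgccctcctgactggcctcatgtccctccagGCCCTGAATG
OAZ1 intron 3: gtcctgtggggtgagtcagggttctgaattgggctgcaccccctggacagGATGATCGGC
OAZ1 intron 4: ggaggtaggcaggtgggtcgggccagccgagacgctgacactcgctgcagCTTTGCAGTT
OAZ1 intron 5: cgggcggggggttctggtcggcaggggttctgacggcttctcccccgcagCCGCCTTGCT
In the 20 bases before the acceptor triplet, pyrimidines made up 70% in each of the SRM introns 1, 6 and 7. They made up 55% in OAZ1 intron 3 and 50% in intron 4, which filled with drug, and 75% in intron 5, whose share stayed at or under 0.210%. With 6 introns this is a description of these sequences.

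SMS, spermine synthase, rose more in J2 RNA than in the input. It had 75.1 and 89.7 RPM of spliced reads in J2 with drug and 37.1 and 36.2 RPM in J2 with vehicle (1.17 ± 0.08, edgeR, adjusted p = 1.19e-06). It had 54.1 and 58.1 RPM in input with drug and 48.0 and 48.1 RPM in input with vehicle (0.22 ± 0.08, edgeR, adjusted p = 0.0345). The input call ended without input drug replicate 2 (0.17), input vehicle replicate 1 or 2 (0.22 each), or J2 vehicle replicate 1 or 2 (0.22 each). Junction 1, with a GC content of 61.5%, had 2425 and 2356 spliced reads in J2 with drug and 1413 and 1454 in J2 with vehicle, and 1980 and 2139 in input with drug and 1257 and 1416 in input with vehicle. It was higher with drug in both kinds of RNA (0.83 ± 0.08 and 0.68 ± 0.08). Junction 9, with 46.0%, had 195 and 465 spliced reads in J2 with drug and 43 and 47 in J2 with vehicle, and 50 and 65 in input with drug and 165 and 176 in input with vehicle. It was higher with drug in J2 RNA (2.95 ± 0.31) and lower in the input (-1.51 ± 0.32). With the GC trend removed the SMS gene values were 0.84 in J2 RNA and 0.49 in the input, both called (edgeR, adjusted p = 3.78e-08 and 3.36e-06).

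The last SMS intron, 10, on chromosome X, was the only one of its introns with a called change in intronic reads. It had 44 and 72 intronic reads in J2 with drug and 21 and 20 in J2 with vehicle, and 50 and 44 in input with drug and 20 and 6 in input with vehicle. Intronic reads rose by 1.58 ± 0.41 in J2 RNA (edgeR, adjusted p = 0.000558) and 1.90 ± 0.44 in the input (edgeR, adjusted p = 0.000226), both below the medians of all introns. The J2 sign turned under TMM scaling (-0.80) and median-of-ratios scaling (-0.54), and the input call ended under both (0.06 and 0.26). The intron passed the filter of 0.5 RPM through drug libraries only, which favours a call of a rise. Its share was 16.1% and 15.1% in J2 with drug and 28.8% and 22.5% in J2 with vehicle, and 43.5% and 42.3% in input with drug and 12.0% and 3.57% in input with vehicle. So the share in J2 RNA was lower with drug although the intronic reads were higher, since spliced reads at this junction rose more, to 230 and 404 in J2 with drug, against 52 and 69 in J2 with vehicle. SMS intron 5 had no intronic read among 1069 with drug, which allows a share of up to 0.281%.

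SAT1, which starts polyamine breakdown, held the only one of the 9 tested introns that lost reads with drug. Its spliced reads were 31.0 and 38.9 RPM in J2 with drug and 23.3 and 22.1 RPM in J2 with vehicle (0.63 ± 0.10, edgeR, adjusted p = 0.000338). They were 23.0 and 23.4 RPM in input with drug and 14.6 and 13.7 RPM in input with vehicle (0.72 ± 0.11, edgeR, adjusted p = 0.000192). Intron 3 of 5 (chromosome X, 23783883 to 23785328, plus strand) had 14 and 17 intronic reads in J2 with drug and 96 and 117 in J2 with vehicle, and 7 and 18 in input with drug and 59 and 68 in input with vehicle. The groups did not overlap in either kind of RNA. Intronic reads fell by 2.67 ± 0.35 on the log2 scale in J2 RNA (-2.67, edgeR, adjusted p = 1.28e-08) and by 2.28 ± 0.38 in the input (-2.28, edgeR, adjusted p = 1.81e-06). Such falls were called in 6.40% and 7.21% of all introns tested. The intron passed the filter of 0.5 RPM through vehicle libraries only, which favours a call of a fall. The share was 8.24% and 4.90% in J2 with drug and 27.5% and 28.7% in J2 with vehicle, and 7.37% and 15.1% in input with drug and 31.2% and 37.0% in input with vehicle. Intron 2, of 90 bases, went the other way, with 11 and 10 intronic reads in J2 with drug and 2 and 0 in J2 with vehicle, and 17 and 10 in input with drug and none in input with vehicle. Introns 4 and 5 had no intronic read in any library.

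Inside SAT1 intron 3 lies an annotated exon of 110 bases (chrX:23784294-23784403, GRCh38, plus strand), part of a processed transcript in GENCODE 29 that splices the exon between the exons flanking the intron. An exon at this place is known to be spliced in when polyamines are low and to direct the transcript to nonsense-mediated decay. The tables give 1 total per intron, so reads of this exon and of the rest of the intron cannot be told apart. Its sequence is shown with the first stop codon in the SAT1 reading frame in capitals.
SAT1 exon within intron 3: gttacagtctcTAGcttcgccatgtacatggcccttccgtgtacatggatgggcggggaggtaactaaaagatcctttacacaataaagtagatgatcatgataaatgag
The stop codon TAG begins at base 12 of the exon, and the exon holds 3 stop codons in that frame.

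OAZ1, the main antizyme, lost spliced reads and filled introns 3 and 4. It had 234 and 237 RPM of spliced reads in J2 with drug and 376 and 377 RPM in J2 with vehicle (-0.68 ± 0.04, edgeR, adjusted p = 4.84e-07). It had 247 and 247 RPM in input with drug and 344 and 344 RPM in input with vehicle (-0.48 ± 0.04, edgeR, adjusted p = 5.38e-06). The input value was 0.10 below the median of all genes, and with the GC trend removed it was 0.07 (adjusted p = 0.155), against -0.14 in J2 RNA (adjusted p = 0.00978). Intron 4 (chromosome 19, 2271954 to 2272735, plus strand), of 780 bases, had 477 and 566 intronic reads in J2 with drug and 38 and 39 in J2 with vehicle, and 529 and 519 in input with drug and 83 and 77 in input with vehicle. Its share was 11.5% and 12.9% in J2 with drug and 0.698% and 0.661% in J2 with vehicle, and 14.4% and 13.8% in input with drug and 1.69% and 1.47% in input with vehicle. Intronic reads rose by 3.85 ± 0.18 in J2 RNA (edgeR, adjusted p = 1.06e-20) and 2.77 ± 0.17 in the input (edgeR, adjusted p = 1.62e-17). Intron 3, of 251 bases, rose by 2.01 ± 0.26 and 1.89 ± 0.26, below the medians of all introns. Its J2 sign turned under TMM (-0.37) and median-of-ratios scaling (-0.11), and the input call ended under both (0.05 and 0.25). Its share was 4.02% and 3.80% in J2 with drug and 0.745% and 0.591% in J2 with vehicle, and 4.07% and 4.02% in input with drug and 0.908% and 0.658% in input with vehicle. Intron 5, of 151 bases, kept a share of at most 0.210% in any library.

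OAZ2, the second antizyme, rose in both kinds of RNA when its 3 listed junctions were summed, with most reads at junction 3. It had 19.2 and 21.5 RPM of spliced reads in J2 with drug and 11.3 and 11.1 RPM in J2 with vehicle (0.86 ± 0.09, edgeR, adjusted p = 2.36e-05). It had 14.9 and 16.7 RPM in input with drug and 8.96 and 9.33 RPM in input with vehicle (0.79 ± 0.10, edgeR, adjusted p = 5.54e-05). In these sums by depth scaling it differed from OAZ1 in direction. In the input OAZ1 had only -0.10 relative to the median of all genes, and 0.07 with the GC trend removed. Its junctions did not all rise alike. Junction 3 had 15.3 and 15.1 RPM in J2 with drug and 7.68 and 6.96 RPM in J2 with vehicle. Junction 5 had 2.88 and 3.68 RPM in J2 with drug and 2.92 and 3.39 RPM in J2 with vehicle, which overlap. In the input junction 5 was higher with drug, at 3.26 and 3.46 RPM against 1.96 and 1.59 RPM with vehicle. Junction 4 had 1.06 and 2.64 RPM in J2 with drug and 0.660 and 0.754 RPM in J2 with vehicle. It had 1.04 and 1.06 RPM in input with drug and 0.938 and 0.922 RPM in input with vehicle. The OAZ2 intron with most intronic reads, intron 5 on chromosome 15, had 6 and 9 in J2 with drug and 3 and 1 in J2 with vehicle, and 6 and 5 in input with drug and 0 and 1 in input with vehicle. That was too few to enter the test.

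AZIN1, the antizyme inhibitor, was a low gene with a fall in the input. It had 2.84 and 4.74 RPM of spliced reads in J2 with drug and 2.30 and 2.70 RPM in J2 with vehicle (0.60 ± 0.24, edgeR, adjusted p = 0.0431). It had 3.28 and 4.02 RPM in input with drug and 6.77 and 6.82 RPM in input with vehicle (-0.90 ± 0.23, edgeR, adjusted p = 0.00595). The J2 call ended without any 1 library other than J2 drug replicate 1, and the value was 0.18 without J2 drug replicate 2. The input call ended without input drug replicate 1 (-0.76, adjusted p = 0.0585). Its junctions reach the lowest GC content of the set (36.0% to 49.5%, median 41.0%). With the GC trend removed the J2 value was -0.58 (adjusted p = 0.00449) and the input value -0.12 (adjusted p = 0.452), so its direction in J2 RNA depends on that trend. Intron 5, on chromosome 8, had 4 and 13 intronic reads in J2 with drug and none in J2 with vehicle, and 11 and 9 in input with drug and 8 and 8 in input with vehicle.

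Of the 46 introns, 9 introns of SRM, OAZ1, SMS and SAT1 had enough intronic reads for the test (0.5 RPM in 2 libraries). With drug 7 of them were higher and 1 lower in J2 RNA by depth scaling, against 85.3% of all introns called (78.9% higher). Under TMM the J2 signs of SRM intron 3 (-0.21), OAZ1 intron 3 (-0.37) and SMS introns 1 (-1.76) and 10 (-0.80) turned. All of these but SRM intron 3 also turned under median of ratios and DESeq2, so the J2 count depends on the scaling. In the input 7 were higher and 1 lower by depth scaling, against 81.4% (74.2% higher), and 4 higher and 1 lower under TMM, median of ratios and DESeq2. These counts are a description, since SRM introns 3 and 5 and SMS introns 1 and 10 passed the filter through drug libraries only and SAT1 intron 3 through vehicle libraries only. SRM introns 1 and 6 and OAZ1 introns 3 and 4 had at least 0.5 RPM in all 8 libraries. SMS intron 1 passed neither test, with 0.62 ± 0.51 in J2 RNA and 1.03 ± 0.52 in the input. The ratio of intronic to spliced reads per gene, tested with limma, could be had for the same 4 genes. It needed 1 RPM of intronic reads in 2 libraries, which SMS reached in drug libraries only and SAT1 in vehicle libraries only. That favours a call of a rise for SMS and of a fall for SAT1. In J2 RNA it was higher with drug for SRM (3.24 ± 0.16) and OAZ1 (3.86 ± 0.19), lower for SAT1 (-2.49 ± 0.20) and 0.02 ± 0.22 for SMS. That is 3 of 4 called, against 87.0% of 3837 genes (83.5% higher and 3.49% lower). In the input it was higher for SRM (3.004 ± 0.16), OAZ1 (3.001 ± 0.19) and SMS (1.22 ± 0.22) and lower for SAT1 (-1.87 ± 0.20). That is 4 of 4, against 86.2% (83.8% higher and 2.37% lower), and the SMS sign turned when intronic and spliced reads were scaled separately (-0.87).

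The members' junctions were also set beside GC content, as a description. In J2 RNA the 19 junctions other than those of AMD1 with a GC content of at most 45% had a median drug effect of 1.08, and 17 of them were higher (1.44 and 20 of 22 with AMD1). The 9 junctions with over 45% and at most 50% had a median of 1.05, and 8 were higher. The 14 junctions with over 50% had a median of -0.06, and 5 were higher. In the input the medians of the 3 classes were -0.96 without AMD1 (2 of 19 higher), 0.22 (6 of 9) and -0.25 (4 of 14). Over all junctions of the tables, the J2 medians were 1.64 (6508 junctions), -0.20 (5499) and -0.53 (33554) in the 3 classes, and the input medians were -0.93, -0.02 and -0.60. In the middle class the members and all junctions thus had J2 medians of opposite sign, which was not tested. Of all junctions in the 3 classes, 88.0%, 43.8% and 30.9% were higher with drug in J2 RNA, and 25.2%, 49.4% and 28.9% in the input. J2 drug replicate 2 stood above replicate 1 by a median of 0.69 at junctions with up to 40%. With the GC trend removed, 7 of 19, 9 of 9 and 12 of 14 junctions were higher with drug in J2 RNA, with medians of -0.23, 1.44 and 0.42. For all junctions the shares by class were not counted with the trend removed, and their median was 0.03. The part of GC content in the members' changes was not tested beyond such values.

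**Figure D3:**
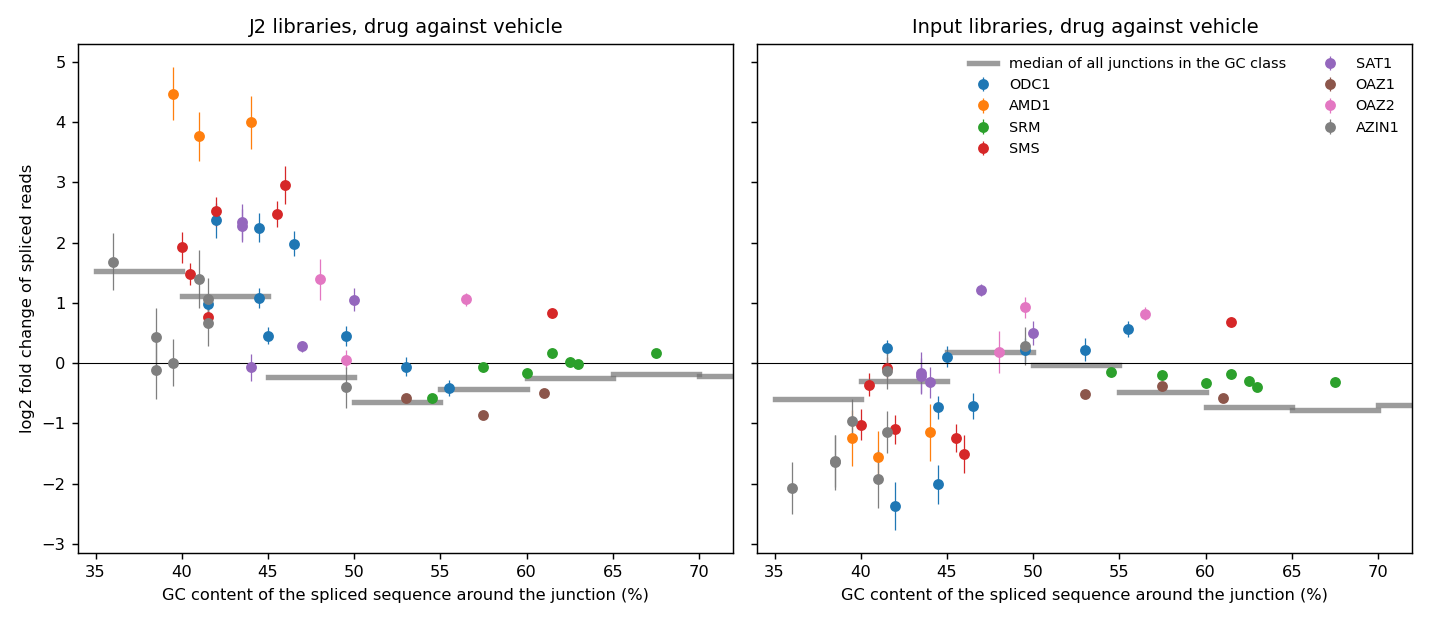
Drug effect on spliced reads (log2 fold change, vertical axis, with SE) of 45 junctions of the polyamine genes against the GC content of the spliced sequence around the junction (percent), in J2 libraries on the left and input libraries on the right. Grey bars give the median of all junctions in a GC class, and with a GC content of at most 45%, 20 of 22 member junctions (AMD1 included) lie above 0 in J2 RNA and 2 of 22 in the input. Of all junctions with at most 45%, 88.0% lie above 0 in J2 RNA and 25.2% in the input.

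Of the members tested, ODC1 had the highest recovery by J2, both with drug and with vehicle. With vehicle its junctions differed in sign: junction 11, with 7017 spliced reads in J2 and 1737 in input, had 1.86 ± 0.14, while junctions 10, 9, 8 and 5 had -0.78, -1.04, -0.95 and -0.22. With drug, spliced reads were higher in J2 RNA than in the input for ODC1 (1.10 ± 0.08), SRM (0.67 ± 0.05), SAT1 (0.59 ± 0.10), SMS (0.56 ± 0.08) and OAZ2 (0.37 ± 0.09). OAZ1 had -0.07 ± 0.04 and AZIN1 0.06 ± 0.23, which missed the threshold (edgeR, adjusted p = 0.187 and 0.854). That is 5 of 7 called, all higher, against 55.6% of all genes (28.2% higher and 27.4% lower). AMD1 had 3.28 ± 0.40 and 2.53 without J2 drug replicate 2. With vehicle, recovery was higher for ODC1 (1.27 ± 0.08), SAT1 (0.68 ± 0.10), SRM (0.43 ± 0.05), OAZ2 (0.29 ± 0.10) and OAZ1 (0.13 ± 0.04). It was lower for AMD1 (-2.15 ± 0.43), AZIN1 (-1.44 ± 0.23) and SMS (-0.39 ± 0.08). That is 8 of 8, against 60.7% of all genes (16.4% higher and 44.3% lower), with a median of -0.28 over all genes. With the GC trend removed SMS had 0.32, AZIN1 0.04 and AMD1 -0.77 with vehicle, while ODC1 had 1.73 with vehicle and 1.40 with drug. The vehicle calls of OAZ1 and OAZ2 ended without either input vehicle or either J2 vehicle library (0.13 for OAZ1 each time, 0.26 to 0.32 for OAZ2). The call of OAZ2 with drug ended without input drug replicate 1 (0.29).

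**Figure D4:**
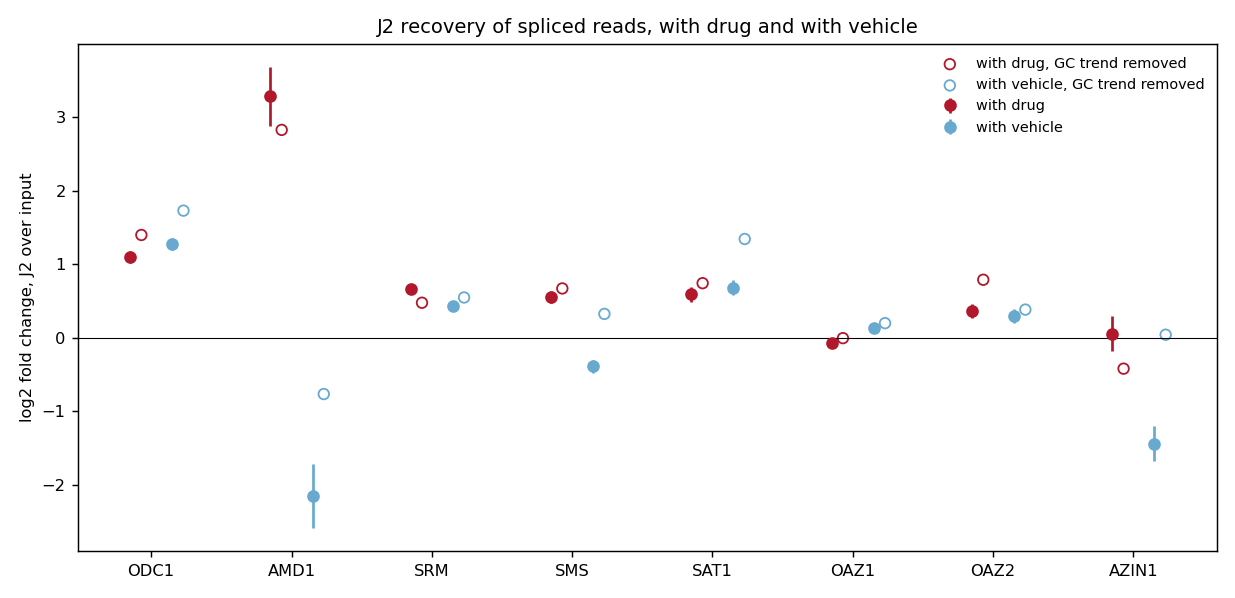
Recovery of spliced reads by J2 (log2 fold change of J2 over input, vertical axis) for each polyamine gene with drug (left, red) and vehicle (right, blue). Filled points carry the SE, and open points are the values with each library's GC trend removed. ODC1 lies above 1 in both, and AMD1 is high with drug and low with vehicle.

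Intronic reads were compared between J2 RNA and input in the same way. With drug 3 of 9 introns were higher in J2 RNA, against 36.8% of all introns called (22.5% higher and 14.2% lower): SRM intron 3 (1.56 ± 0.32), intron 1 (0.82 ± 0.17) and intron 6 (0.43 ± 0.13). The call of intron 6 ended without J2 drug replicate 1 (0.34) or input drug replicate 1 (0.39). These values stand beside 0.67 ± 0.05 for the spliced reads of SRM. With vehicle 1 of 9 was called, OAZ1 intron 4, which was lower in J2 RNA (-1.21 ± 0.22, edgeR, adjusted p = 7.50e-05), against 20.8% of all introns (5.61% higher and 15.2% lower). The ratio of intronic to spliced reads did not pass the limma test for any of the 4 genes with drug, against 14.0% of all genes (7.06% higher and 6.98% lower). At an unadjusted p under 0.05 it did for 2 of them (SAT1 and SMS). The share of all genes at that looser threshold was not counted, so the 2 cannot be set beside the 14.0%. With vehicle it was lower in J2 RNA for OAZ1 alone (-0.93 ± 0.19, limma, adjusted p = 0.0141), against 27.5% of all genes (8.91% higher and 18.6% lower), a call that ended without input vehicle replicate 1 (-0.78).

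Whether the drug effect differed between J2 RNA and input was tested as an interaction, which called 4 of 7 members in spliced reads, against 49.6% of all genes (35.8% higher and 13.8% lower). These were AZIN1 (1.496 ± 0.33), SMS (0.95 ± 0.12), SRM (0.23 ± 0.07) and OAZ1 (-0.20 ± 0.06), beside a median of 0.28 over all genes. With the GC trend removed AZIN1 had -0.46 and SRM -0.07, neither called, and SMS had 0.35 (edgeR, adjusted p = 0.00258). SAT1 and OAZ2 were called with the trend removed, at -0.60 and 0.41. The call of SRM ended without J2 drug replicate 1 (0.18), either J2 vehicle or either input vehicle library, and that of OAZ1 without any 1 of the 4 vehicle libraries (-0.20 each). SAT1 and OAZ2 had -0.09 ± 0.15 and 0.08 ± 0.13, and AMD1 had 5.43 ± 0.59. In intronic reads 2 of 9 introns were called, OAZ1 intron 4 (1.08 ± 0.26) and SRM intron 1 (0.97 ± 0.32), against 12.3% of all introns (10.3% higher and 1.92% lower). Both calls ended under TMM (0.54 and 0.44), median-of-ratios scaling (0.60 and 0.49) and DESeq2 (0.60 and 0.49). The call of SRM intron 1 ended without J2 drug replicate 2 (0.83), J2 vehicle replicate 2 (0.76), input drug replicate 1 (1.01) or 2 (0.93), or input vehicle replicate 2 (0.79). The ratio called none of the 4 genes, against 9.77% of all genes (6.12% higher and 3.65% lower). At an unadjusted p under 0.05 it called 2 of them (OAZ1 and SMS), where the share of all genes was not counted. A pseudocount of 5 called 1 of the 4, here and with drug between J2 RNA and input, which is given without the share of all genes.

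Other genes around the pathway were taken from lists of 39 genes, of which 26 could be tested in spliced reads. With drug 8 were higher and 12 lower in J2 RNA, and 7 higher and 12 lower in the input. Over all genes 34.6% were higher and 39.5% lower in J2 RNA, and 21.8% and 48.7% in the input. SAT2, a relative of SAT1, had 43.2 RPM in J2 with drug and 21.7 RPM in J2 with vehicle, and 42.1 RPM in input with drug and 17.6 RPM in input with vehicle (0.99 ± 0.08 and 1.26 ± 0.08). SMOX, spermine oxidase, fell (-0.82 ± 0.09 and -1.13 ± 0.09). In the hypusine route, in which spermidine modifies the translation factor EIF5A, the first enzyme DHPS fell (-2.13 ± 0.14 and -1.99 ± 0.15), while DOHH (1.06 ± 0.13 and 0.69 ± 0.13) and EIF5A (0.36 ± 0.05 and 0.76 ± 0.05) rose. The intronic to spliced ratio of DHPS rose by 5.59 ± 0.24 in J2 RNA and 6.04 ± 0.24 in the input, the largest change among the 13 listed genes with a ratio. ATP13A2, a lysosomal polyamine exporter, fell in spliced reads (-2.07 ± 0.07 and -2.46 ± 0.07), and SLC12A8 (2.02 ± 0.13 and 2.31 ± 0.13) and the arginine transporter SLC7A1 (0.79 ± 0.09 and 0.84 ± 0.08) rose. The arginine synthesis enzymes ASS1 (-1.64 ± 0.06 and -1.30 ± 0.06) and ASL (-1.45 ± 0.08 and -1.84 ± 0.08) fell. Of the 4 genes tested for ornithine and arginine supply, 3 were lower in J2 RNA, and 1 was higher and 3 lower in the input. AZIN2 fell (-3.54 ± 0.69 and -2.92 ± 0.67) from a level of at most 1.37 RPM. At that level it can have passed the filter of 1 RPM through vehicle libraries only, which favours a call of a fall. MYC, which drives ODC1 transcription, had 17.1 RPM in J2 with drug and 22.8 RPM in J2 with vehicle, and 19.3 RPM in input with drug and 23.7 RPM in input with vehicle (-0.41 ± 0.08 and -0.30 ± 0.08). MAT2A, which makes S-adenosylmethionine, had at most 1.63 RPM and did not pass the test. Of the 7 genes tested in its list, 2 were higher and 3 lower in J2 RNA, and 2 were lower in the input. For the ratio, 12 of 13 were higher and 1 lower in J2 RNA, and 10 higher and 1 lower in the input, where 83.5% and 3.49% of all genes were called so in J2 RNA and 83.8% and 2.37% in the input. SLC12A8 was the lower one in both (-1.01 ± 0.18 and -0.56 ± 0.18).

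Across the 8 libraries, the genes whose spliced levels followed a member most closely were found by Pearson's r of log2(RPM + 0.5) among 5627 genes with at least 5 RPM in a group. For ODC1 these were JTB (0.997) and CREB3 (0.996), for AMD1 GPBP1 (0.995) and AIDA (0.990), and for SRM AKT2 (0.996) and CREB3L1 (0.995). For SMS they were EI24 (0.997) and CDC123 (0.993), for SAT1 VEGFC (0.989) and NXT1 (0.979), for OAZ1 ARFRP1 (0.998) and FAHD2B (0.998), for OAZ2 GSR (0.995) and TMEM248 (0.993), and for AZIN1 DNAJC13 (0.985) and ERRFI1 (0.983). These values rest on 8 libraries in 4 groups and are a description. How common such values are among all genes was not counted, and why these genes followed the members was not tested.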

How the data were processed

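Polyadenylated, strand-marked libraries of SUM159 cells were sequenced, per the labels' protocols, and HISAT2 2.0.4 and hg38 are named in the submitters' processing notes. The authors deposited, per intron, read counts and RPKM values, and each library's depth was read back from both. What the count columns hold was inferred from their values. Intronic counts were taken as deposited, and spliced counts as the deposited total minus them. Genes with 1 RPM in 2 libraries and introns with 0.5 RPM in 2 libraries were tested in 1 fit over 8 libraries, scaled by depth, with edgeR 4.0.16, and log2((intronic + 1)/(spliced + 1)) with limma 3.58.1. DESeq2 1.42.0 was an alternative. Models were tested on simulated data. An exact permutation test of 2 libraries against 2 cannot go below p = 0.333. Per gene, the introns with the most intronic reads in the drug libraries of input and of J2, and that with the lowest share, were named. Other introns and the junctions shown were named after their values were seen. Intervals and floors (3 counts) cover counting error only. The members and lists were chosen with earlier results of these data known. Replicate numbers did not pair the libraries.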

Additional observations from a re-analysis of the deposited data

Results flagged for a closer look

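The drug effect differed between J2 RNA and input by the interaction test of edgeR for 4 genes in spliced reads. The difference was 1.5 for AZIN1 (-0.46 with the GC trend removed), 0.95 for SMS (0.35), 0.23 for SRM (-0.07) and -0.20 for OAZ1 (-0.20). In intronic reads it was 1.08 for OAZ1 intron 4 and 0.97 for SRM intron 1. Neither intronic call held under TMM, median-of-ratios scaling or DESeq2, and that of SRM intron 1 also ended without any 1 of 5 libraries.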

How the results depend on the processing

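Precision was limited by 2 libraries per group and by few intronic reads outside SRM, OAZ1, SMS and SAT1. Scaling set many signs. In spliced reads SRM in the input was 0.015 under TMM, 0.14 under median of ratios and 0.14 in DESeq2, and its interaction -0.10 under median of ratios and -0.10 in DESeq2. Removal of the GC trend, an alternative chosen after seeing the data, also takes out each library's overall level. With the trend removed the input values were 0.067 for OAZ1 and 0.53 for SRM. In J2 RNA with drug against vehicle they were -0.58 for AZIN1 and 0.45 for SRM. J2 against input was -0.42 for AZIN1 with drug, and 0.040 for AZIN1 and 0.32 for SMS with vehicle. The interaction was -0.46 for AZIN1 and -0.071 for SRM. The cause was not tested.

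Intronic reads of SRM intron 3 in the input were -0.27 under TMM, -0.070 under median of ratios and -0.070 in DESeq2. In J2 RNA SRM intron 3 was -0.21 under TMM. In the same order of the 3 scalings, the J2 values were -0.37, -0.11 and -0.11 for OAZ1 intron 3, -1.76, -1.49 and -1.499 for SMS intron 1, and -0.80, -0.54 and -0.54 for SMS intron 10. The SMS ratio was -0.87 in the input and -2.21 in J2 RNA under median of ratios. That scaling moved the all-feature medians in the input to 0.03 for spliced reads and 0.65 for intronic reads. Calls over all genes in the input were 1841 higher and 4118 lower by depth, and 3178 and 2914 by median of ratios. For introns they were 6322 and 614, and 3573 and 2202.

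The 8 spliced calls in the input were 5 under median of ratios, in DESeq2 and with the GC trend removed, and 5 to 8 with 1 library left out. The 4 interaction calls were 2 to 5 with 1 library left out. The 8 intronic calls in the input were 5 under TMM, median of ratios and DESeq2. The 1 intronic call between J2 and input with vehicle was 4 under TMM and median of ratios, 3 in DESeq2 and 2 with a looser filter. The 2 intronic interaction calls were 0 under TMM, median of ratios and DESeq2, 1 with a looser filter and 1 to 2 with 1 library left out. The ratio between J2 and input had 1 call with drug and 1 in the interaction with a pseudocount of 5 and under median of ratios. With vehicle it had 0 calls with a looser filter and with only the groups compared, and 0 to 1 with 1 library left out.

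Same-numbered libraries did not deviate together (correlations of -0.0775 to 0.0999 over 8461 genes). With the replicate block the calls in spliced reads were 7 in the input, 5 in J2 RNA, 5 and 8 between J2 and input with drug and vehicle, and 4 in the interaction. The replicate block gave 8, 8, 3, 1 and 1 intronic calls and 4, 3, 0, 1 and 0 ratio calls in the same order.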
